A study of Homo sapiens with 12 samples.

Results

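Transcripts of 8 genes that mark damaged or surplus mitochondria for autophagy were followed: the receptors BNIP3, BNIP3L, FUNDC1, BCL2L13, FKBP8 and PHB2, the ubiquitin-binding adaptor OPTN and the kinase PINK1. They were taken by symbol from a table of 58735 genes, and all 8 were among the 16891 genes with enough counts to be tested. All samples were FDX2-iKO ES2 cells. ES2 is a line of human ovarian carcinoma, and in these derivatives the endogenous FDX2 gene was knocked out while an HA-tagged, editing-resistant FDX2 was kept on by doxycycline (Doxy) through a TetON system, so that Doxy withdrawal led to FDX2 loss. FDX2 is the mitochondrial ferredoxin that donates electrons for iron-sulfur cluster assembly. RNA-seq was available for 4 conditions of 3 libraries each: 20% O2 + Doxy and 20% O2 wo Doxy, both after 6 days of culture, and 3% O2 + Doxy and 3% O2 wo Doxy, both after 4 days at 20% O2 and then 3 days at 3% O2. All 12 libraries thus came from edited cells carrying the transgene, which the study obtained as clones. Its results are from a single clone except where it says otherwise, and the library titles name no clone. The libraries of a condition are therefore not known to span clones. No library came from other cells with and without Doxy, so that FDX2 loss and the absence of the drug itself cannot be told apart. The libraries at 3% O2 also came from a longer culture, so that oxygen and time in culture cannot be told apart. The study describes the libraries of a condition as biological replicates.

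Mitophagy, the removal of mitochondria by autophagosomes, is started along a pair of routes. In the ubiquitin route, PINK1 is imported and degraded in healthy mitochondria, builds up on the outer membrane of depolarised ones, and phosphorylates ubiquitin there, after which adaptors such as OPTN link the ubiquitin coat to ATG8 proteins on the autophagosome. In the receptor route, proteins that sit in the mitochondrial membranes bind ATG8 proteins directly. BNIP3 and BNIP3L (also called NIX) are known as targets of the oxygen-regulated factor HIF-1, FUNDC1 is best known for regulation by phosphorylation in hypoxia, BCL2L13 is a counterpart of the yeast receptor Atg32, FKBP8 is an immunophilin-like protein of the outer membrane, and PHB2 is a prohibitin of the inner membrane that can bind LC3 once the outer membrane has broken. Iron limitation is a known trigger of mitophagy in cultured cells.

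Libraries held between 24958386 and 34313637 counts (median 29621780). Levels are given in CPM, the count of a gene relative to the total of its library after scaling by edgeR's TMM factors, with the SD over 3 libraries. The targeted gene could not be used to check the labels: FDX2 held 2 to 13 counts per library, and 70.9% of its exonic bases (972 of 1371) are shared with other annotated genes. Of 9 epithelial and ovarian markers, KRT7, KRT8, KRT18 and PAX8 had a median of at least 1 CPM, whereas EPCAM, CDH1, MUC16, NAPSA and WT1 were at or near 0 (0 to 0.288 CPM). The mesenchymal markers VIM, CDH2 and ZEB1 were all present. Of 11 markers of other cell types, 5 had a median of at least 1 CPM (COL1A1, CDH5, SNAP25, SYP and LYZ), while the leukocyte markers PTPRC and CD3E held at most 2 counts per library and PECAM1 and VWF at most 6. The summed level of these 11 markers, carried mainly by COL1A1, was 1298 to 1955 CPM in 20% O2 + Doxy, 1111 to 1183 in 20% O2 wo Doxy, 1384 to 2037 in 3% O2 + Doxy and 1902 to 2516 in 3% O2 wo Doxy, and its part in the values below was not tested. In 3 libraries, 20% O2 + Doxy replicate 1, 3% O2 + Doxy replicate 3 and 3% O2 wo Doxy replicate 2, GC-rich transcripts were high: the fitted trend was 0.36, 0.39 and 0.38 higher (log2) at 60% than at 40% GC, against -0.30 to 0.11 in the other 9. The trend also separated the conditions without Doxy: it was -0.194, -0.168 and -0.297 at 20% O2 and 0.0335, 0.376 and 0.113 at 3% O2. Between these conditions, GC trend and oxygen cannot be told apart, and a GC correction may also remove a difference between them. For FKBP8 (66.6% GC in its longest transcript), FUNDC1 (40.7%) and PHB2 (56.9%), values after a correction for GC content are given below, as they are where the correction changed the call of another member.

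Promoters are shown for BNIP3 and OPTN, the members with the largest differences between conditions for which RefSeq sequence was at hand. They were taken from a RefSeq table on GRCh38.p14, which held 5 of the 8 genes (BNIP3, FUNDC1, BCL2L13, OPTN and PHB2). The sequences run 5′ to 3′ on the strand of the gene and leave out bases that GENCODE release 29 counts as exon. In the BNIP3 promoter (chr10:131982014-131982173, minus strand, from 250 to 91 bases before the RefSeq start), capitals mark ACGTG and GCGTG, the core letters of the HIF binding element, on either strand.
BNIP3: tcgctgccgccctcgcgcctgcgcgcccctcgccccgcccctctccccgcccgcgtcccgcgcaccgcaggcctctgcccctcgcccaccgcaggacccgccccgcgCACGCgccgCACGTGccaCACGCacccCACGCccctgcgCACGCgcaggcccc
ACGTG occurred once on each strand, in overlapping positions, and GCGTG occurred 4 times, each on the strand opposite to the gene, where the printed letters read CACGC. In the OPTN promoter (chr10:13099959-13100158, plus strand, from 204 to 5 bases before the second RefSeq start), capitals mark a match to the NF-kB consensus that was found on both strands in overlapping positions. This stretch lies within the span of OPTN in GENCODE release 29, which begins at 13099449. It also runs past the first RefSeq start of OPTN, since the bases before that start end at 13100081. Counted from the first start, the match on the strand of the gene begins at position -12.
OPTN: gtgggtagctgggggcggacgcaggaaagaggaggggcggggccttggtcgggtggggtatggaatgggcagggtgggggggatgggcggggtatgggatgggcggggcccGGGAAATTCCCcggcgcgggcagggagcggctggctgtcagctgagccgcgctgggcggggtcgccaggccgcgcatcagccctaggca
Among 35116 RefSeq promoters, searched over the 250 bases before the start on both strands, 18.5% held ACGTG, 32.2% held GCGTG and 9.96% held the NF-kB consensus. In the same windows, none of these letters was found for FUNDC1 and PHB2, and BCL2L13 held 1 GCGTG at 1 of its 3 starts. These matches describe the sequence and do not show binding.

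BNIP3 and BNIP3L were the 2 members that rose at 3% O2 in cells that kept FDX2. BNIP3 (ENSG00000176171, chromosome 10, 131966455 to 131982013, minus strand) measured 109, 105 and 109.9 CPM in the libraries of 20% O2 + Doxy and 313, 356 and 362 CPM in those of 3% O2 + Doxy. The groups did not overlap, and the level at 3% O2 was 3.17-fold higher (log2 fold change 1.67, standard error 0.0695, adjusted p = 6.13e-07). Adjusted p-values here and below are from the edgeR quasi-likelihood test, corrected by Benjamini-Hochberg over all tested genes. BNIP3L (ENSG00000104765, chromosome 8) measured 34.3, 38.4 and 36.3 CPM at 20% O2 and 97.5, 112 and 100.02 CPM at 3% O2, again without overlap. It was 2.84-fold higher at 3% O2 (log2 fold change 1.51, standard error 0.0857, edgeR adjusted p = 3.52e-06). In bulk RNA, a change in transcripts per cell and a change in the share of cells that express a gene cannot be told apart.

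**Figure D1:**
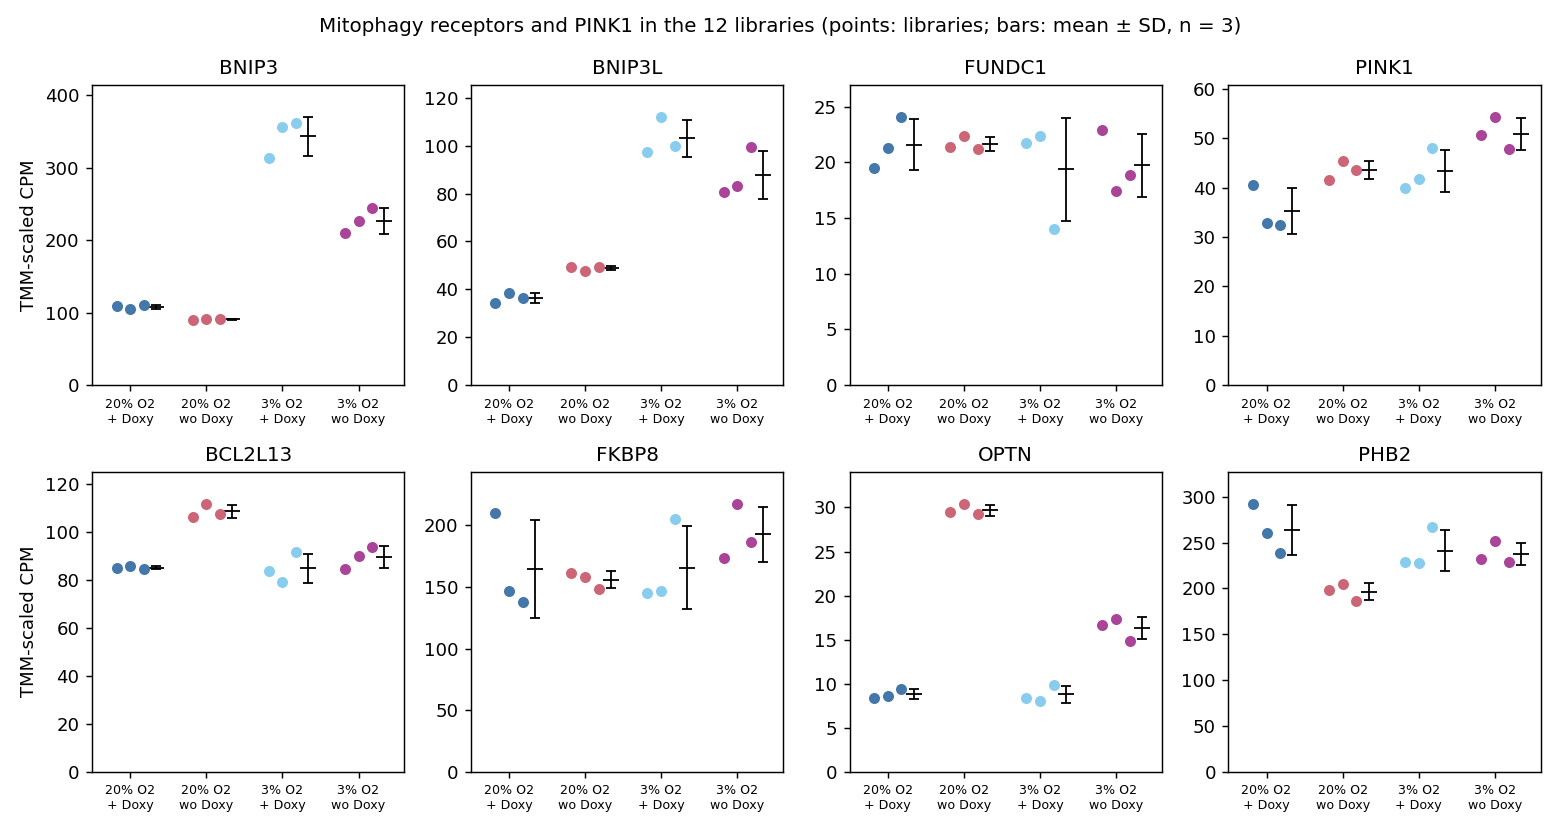
TMM-scaled CPM (vertical axes, from 0) of the 8 genes in each of the 12 libraries, grouped by condition, with the mean and SD of 3 libraries beside the points. BNIP3 and BNIP3L stand highest at 3% O2, OPTN stands highest in 20% O2 wo Doxy (29.2 to 30.4 CPM), and single libraries of FKBP8 and FUNDC1 lie apart from the others of their condition.

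These 2 of 8 members compare with 2.02% of all tested genes called in this comparison (1.63% higher and 0.385% lower), and 2 of 8 had groups that did not overlap, against 15.4% of tested genes. For the other 6 members the log2 fold changes at 3% against 20% O2 with Doxy lay between -0.16 and 0.30. The intervals of the differences show how well this was measured: the 95% confidence interval was -0.20 to 0.19 for OPTN, -0.14 to 0.13 for BCL2L13 and -0.32 to 0.06 for PHB2, but -0.52 to 0.20 for FUNDC1 and -0.36 to 0.38 for FKBP8. PINK1 was the nearest of them to a call, at 40.6, 32.8 and 32.4 CPM at 20% O2 and 40.02, 41.8 and 48.1 CPM at 3% O2 (log2 fold change 0.30, standard error 0.0982, edgeR adjusted p = 0.191). Its groups overlapped through 20% O2 + Doxy replicate 1, and without that library the value was 0.40 with an edgeR adjusted p of 0.0355. After the GC correction PINK1 (0.28, edgeR adjusted p = 0.0120) and PHB2 (-0.15, adjusted p = 0.0220) also passed the threshold in this comparison.

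In cells that had lost FDX2, low oxygen was again accompanied by higher BNIP3 and BNIP3L, and 3 other members also changed. BNIP3 went from 89.3, 91.3 and 91.3 CPM in 20% O2 wo Doxy to 209.6, 226 and 245 CPM in 3% O2 wo Doxy (2.50-fold, log2 fold change 1.32, standard error 0.0691, edgeR adjusted p = 1.62e-06). BNIP3L went from 49.5, 47.7 and 49.3 to 80.8, 83.2 and 99.4 CPM (1.80-fold, log2 fold change 0.85, standard error 0.0844, edgeR adjusted p = 7.66e-05). In both genes every library at 3% O2 was above every library at 20% O2. OPTN, described below, was 1.82-fold lower at 3% O2 (log2 fold change -0.87, standard error 0.0851, edgeR adjusted p = 7.04e-05), and BCL2L13 was 1.21-fold lower (log2 fold change -0.28, standard error 0.0605, edgeR adjusted p = 0.00734). PHB2 was 1.21-fold higher (log2 fold change 0.27, standard error 0.0847, edgeR adjusted p = 0.0371).

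The PHB2 call did not hold in most alternatives: after a correction for GC content the log2 fold change was 0.06 (edgeR adjusted p = 0.223), and the call was lost without any 1 of 20% O2 wo Doxy replicates 1, 2 or 3 or 3% O2 wo Doxy replicates 2 or 3 (log2 fold changes of 0.23 to 0.30). The study does not state a pairing of libraries, so pairing by replicate number was inferred from these data. Same-numbered libraries of these conditions deviated together (correlations 0.190 to 0.497, against -0.473 to 0.231 for the 6 other pairs). However, 20% O2 wo Doxy replicate 2 correlated more with 3% O2 wo Doxy replicate 3 (0.211) than with replicate 2 (0.190). Fits with a replicate block rest on this inferred pairing. With the replicate block in a fit of all 12 libraries, PHB2 was not called (log2 fold change 0.27, edgeR adjusted p = 0.0727), and with the block in a fit of these 6 libraries it was (0.26, adjusted p = 0.0103). That fit of 6 libraries also called PINK1 (log2 fold change 0.21, edgeR adjusted p = 0.0380) and FKBP8 (0.29, adjusted p = 0.0398), which the fit of all libraries did not (0.23, adjusted p = 0.111, and 0.30, adjusted p = 0.206). With the block and the GC correction together, PINK1 stood at 0.12 (edgeR adjusted p = 0.158), FKBP8 at -0.14 (adjusted p = 0.0677) and PHB2 at 0.06 (adjusted p = 0.295). The GC trends of these conditions did not overlap, so the corrected values may also lack a part of the difference between the conditions. Over the 8 members, 5 were called (3 higher and 2 lower), against 25.8% of all tested genes (13.9% higher and 11.9% lower), and 7 had groups that did not overlap, against 49.4%.

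OPTN showed the largest response of the 8 genes to FDX2 loss. OPTN (ENSG00000123240, chromosome 10, 13099449 to 13138308, plus strand) was the scarcest member with Doxy, at 8.41, 8.59 and 9.43 CPM in 20% O2 + Doxy. In 20% O2 wo Doxy it measured 29.4, 30.4 and 29.2 CPM, 3.37-fold higher and far from overlap (log2 fold change 1.75, standard error 0.0879, edgeR adjusted p = 3.02e-07). At 3% O2 it measured 8.42, 8.06 and 9.86 CPM with Doxy and 16.7, 17.3 and 14.9 CPM without Doxy, a 1.85-fold rise (log2 fold change 0.89, standard error 0.0883, edgeR adjusted p = 0.000356). With Doxy, the level thus lay at 8.06 to 9.86 CPM at either oxygen level, and without Doxy the libraries at 20% and 3% O2 were apart. The response to FDX2 loss was smaller at 3% than at 20% O2 by 0.86 on the log2 scale (difference -0.86, standard error 0.123, edgeR adjusted p = 0.00269 for the interaction). In this interaction 7.29% of all tested genes were called (3.21% higher and 4.08% lower), and 2 of the 8 members, OPTN and BNIP3L.

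BNIP3L and BNIP3 moved in opposite directions on FDX2 loss at 20% O2. BNIP3L rose 1.34-fold from the levels given above for 20% O2 + Doxy to those of 20% O2 wo Doxy (log2 fold change 0.43, standard error 0.0850, edgeR adjusted p = 0.00269). BNIP3 fell 1.19-fold (log2 fold change -0.26, standard error 0.0683, edgeR adjusted p = 0.0137), and in both genes the libraries with and without Doxy did not overlap. At 3% O2, BNIP3 was 1.51-fold lower without Doxy (log2 fold change -0.60, standard error 0.0678, edgeR adjusted p = 0.000685), with every library without Doxy below every library with Doxy. BNIP3L at 3% O2 had a log2 fold change of -0.23 (95% confidence interval -0.41 to -0.05, edgeR adjusted p = 0.123), and 1 library, 3% O2 wo Doxy replicate 3 at 99.4 CPM, lay within the range with Doxy. Without that library the value was -0.33 and the edgeR adjusted p was 0.0351.

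The difference of the BNIP3L responses was itself past the threshold, at -0.66 (standard error 0.119, edgeR adjusted p = 0.00845), so that its response to FDX2 loss was lower at 3% than at 20% O2. For BNIP3 the difference was -0.34 (standard error 0.0961, edgeR adjusted p = 0.0564). The call for BNIP3 turned on the setting, with adjusted p-values from 0.00534 to 0.133 over 18 alternatives, 6 of which called it (with the GC correction, -0.40, edgeR adjusted p = 0.00745). Per kb of exon, BNIP3 exceeded BNIP3L 2.42-fold ± 0.186 in 20% O2 + Doxy, 1.501-fold ± 0.0441 in 20% O2 wo Doxy, 2.70-fold ± 0.196 in 3% O2 + Doxy and 2.10-fold ± 0.103 in 3% O2 wo Doxy (SD, n = 3). This ratio was lower without Doxy than with Doxy at each oxygen level, and at neither did the libraries overlap. The size of the ratio depended on the length used. Per kb of the longest transcript, BNIP3 stood at 35.3 and BNIP3L at 10.1 CPM in 20% O2 + Doxy, beside 20.3 and 8.44 per kb of exon. The count table also lists 44 BNIP3 pseudogenes, which together held 2 to 13 counts per library, at most 0.252% of the BNIP3 count, and 8.96% of the exonic bases of BNIP3L overlap PNMA2 and SDAD1P1 on the other strand.

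**Figure D2:**
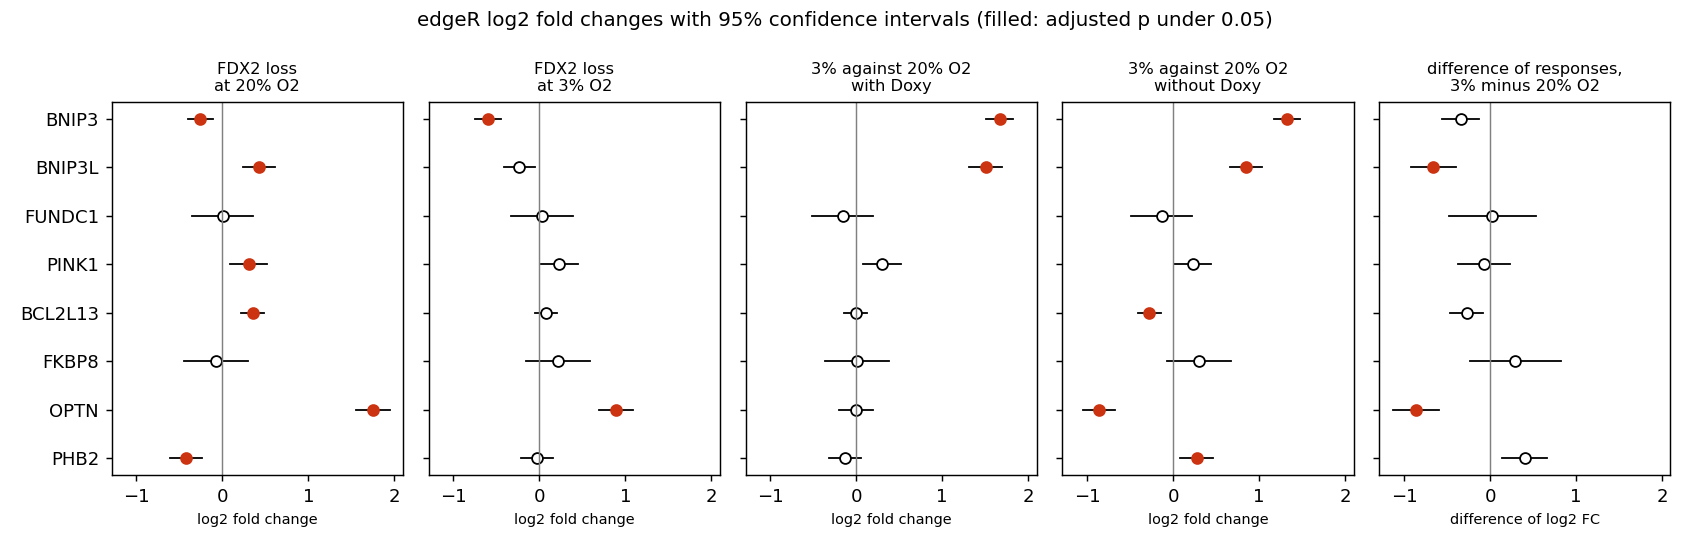
Log2 fold changes from edgeR (horizontal axes) with 95% confidence intervals for the 8 genes in the 5 comparisons, with filled points for an adjusted p under 0.05. OPTN lies at 1.75 and 0.89 for FDX2 loss at 20% and 3% O2, BNIP3 and BNIP3L lie at 1.67 and 1.51 for 3% against 20% O2 with Doxy, and the last panel shows the differences of the responses, at -0.86 for OPTN and -0.66 for BNIP3L.

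The other 3 members called on FDX2 loss at 20% O2 were BCL2L13, PINK1 and PHB2. BCL2L13 (ENSG00000099968, chromosome 22, 17628855 to 17730855, plus strand) measured 85.2, 85.9 and 84.8 CPM with Doxy and 106, 112 and 108 CPM without Doxy (1.27-fold, log2 fold change 0.35, standard error 0.0604, edgeR adjusted p = 0.00110). The libraries of 20% O2 wo Doxy stood above those of the other 3 conditions, which lay between 79.3 and 94.0 CPM. At 3% O2 the log2 fold change was 0.08 (95% confidence interval -0.06 to 0.21, edgeR adjusted p = 0.479). The difference of the responses was -0.27 (standard error 0.0856, edgeR adjusted p = 0.0834) and passed the threshold in 3 of 18 alternatives (with the GC correction, -0.28, edgeR adjusted p = 0.0108).

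PHB2 (ENSG00000215021, chromosome 12, 6965327 to 6970825, minus strand) measured 292, 261 and 239 CPM in 20% O2 + Doxy and 198, 205 and 187 CPM in 20% O2 wo Doxy. It was 1.34-fold lower without Doxy (log2 fold change -0.42, standard error 0.0847, edgeR adjusted p = 0.00272), without overlap of the groups, and stood at -0.27 after the GC correction, still past the threshold. At 3% O2 it measured 229, 228 and 267 CPM with Doxy and 232, 251 and 229 CPM without, and the log2 fold change was -0.02 (95% confidence interval -0.21 to 0.16), or -0.06 after the GC correction. The difference of the responses was 0.40 (standard error 0.120, edgeR adjusted p = 0.0698), which passed the threshold in 5 of 18 alternatives. After the GC correction it was 0.21 and past the threshold (edgeR adjusted p = 0.0120). Exons of PHB2 share 11.8% of their bases with the small RNA SCARNA12 and with U47924.1.

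PINK1 (ENSG00000158828, chromosome 1, 20633455 to 20651511, plus strand) measured 40.6, 32.8 and 32.4 CPM in 20% O2 + Doxy and 41.6, 45.4 and 43.7 CPM in 20% O2 wo Doxy. It was 1.24-fold higher without Doxy (log2 fold change 0.31, standard error 0.0981, edgeR adjusted p = 0.0313), and the lowest library without Doxy was just above the highest with Doxy. The call held in 9 of 14 alternatives, among them the GC correction (0.39, edgeR adjusted p = 0.000144). It was lost without 20% O2 + Doxy replicate 2 (0.25, edgeR adjusted p = 0.118), without replicate 3 (0.24, adjusted p = 0.113), and without 20% O2 wo Doxy replicate 2 (0.26, adjusted p = 0.0965) or replicate 3 (0.28, adjusted p = 0.0763). At 3% O2 the libraries without Doxy measured 50.8, 54.3 and 47.8 CPM against 40.02, 41.8 and 48.1 CPM with Doxy (log2 fold change 0.23, edgeR adjusted p = 0.180), and the groups overlapped. After the GC correction the value was again 0.23 and was called (edgeR adjusted p = 0.0138). The difference of the responses was -0.07 (95% confidence interval -0.38 to 0.23). The antisense gene PINK1-AS and the microRNA gene MIR6084 share 41.7% of the exonic bases of PINK1. PINK1-AS held 149 to 319 counts per library, 10.9% to 25.3% of the PINK1 count, and since the strand setting of the counting is not stated, reads of PINK1 and its antisense partner may not be told apart.

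FUNDC1 (edgeR adjusted p of 0.565 or higher) and FKBP8 (0.206 or higher) did not pass the threshold in the 5 comparisons, with intervals wider than those of the other members. FUNDC1 (ENSG00000069509, chromosome X, 44523639 to 44543001, minus strand) measured 19.5, 21.3 and 24.1 CPM in 20% O2 + Doxy, 21.4, 22.4 and 21.2 in 20% O2 wo Doxy, 21.8, 22.3 and 14.0 in 3% O2 + Doxy, and 22.9, 17.4 and 18.9 in 3% O2 wo Doxy. All 4 groups overlapped, and the log2 fold change on FDX2 loss was 0.002 at 20% O2 (95% confidence interval -0.35 to 0.36) and 0.03 at 3% O2 (-0.33 to 0.39). The lowest library, 3% O2 + Doxy replicate 3, is one of the 3 in which GC-rich transcripts were high. After the GC correction FUNDC1 stood at -0.00110 and 0.09 on FDX2 loss at 20% and 3% O2, at -0.12 and -0.03 for 3% against 20% O2 with and without Doxy, and at 0.09 for the difference of the responses, with edgeR adjusted p-values of 0.678 or higher. FKBP8 (ENSG00000105701, chromosome 19, 18531751 to 18544077, minus strand) measured 209.8, 147 and 137 CPM in 20% O2 + Doxy, 161, 158 and 149 in 20% O2 wo Doxy, 145, 147 and 205 in 3% O2 + Doxy, and 174, 217 and 187 in 3% O2 wo Doxy. Its highest library in 3 conditions was the one with the highest GC trend of that condition. The direction for FKBP8 depended on the correction: on FDX2 loss at 20% O2 the log2 fold change was -0.08 (edgeR adjusted p = 0.761) without and 0.28 (adjusted p = 0.000317) with the GC correction, and for 3% against 20% O2 without Doxy it was 0.30 without and -0.13 (adjusted p = 0.0390) with it. The difference of the responses went from 0.29 to -0.18 (edgeR adjusted p = 0.0656), and the values on FDX2 loss at 3% O2 (0.22 and 0.09) and for 3% against 20% O2 with Doxy (0.01 and 0.05) kept their sign. For 3% against 20% O2 without Doxy, the GC trend and the condition cannot be told apart.

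Of the 8 members, 6 were called on FDX2 loss at 20% O2 (4 higher and 2 lower) and 6 had groups that did not overlap. In the background, 35.3% of all tested genes were called (17.6% higher and 17.7% lower) and 52.3% did not overlap. On FDX2 loss at 3% O2, 2 of 8 were called (OPTN higher and BNIP3 lower) and the same number did not overlap, against 7.31% called (4.2% higher and 3.11% lower) and 24.6% not overlapping among all tested genes. The median log2 fold change of the 8 members was 0.15 at 20% and 0.05 at 3% O2, beside 0.01 and 0.04 over all tested genes. The comparisons of FDX2 loss at 20% and at 3% O2 have no library in common, but share the estimate of the spread. Each shares libraries with the comparisons of oxygen, so those values stand side by side and are not independent. With at least a 1.5-fold change asked for, the member called at 20% O2 was OPTN, 1 of 8 against 2301 of 16891 tested genes.

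Per exon length, PHB2 was the most abundant member in each condition, at 105.6 ± 10.8 CPM per kb in 20% O2 + Doxy, 78.7 ± 3.66 in 20% O2 wo Doxy, 96.6 ± 8.88 in 3% O2 + Doxy and 94.98 ± 4.87 in 3% O2 wo Doxy (SD, n = 3). OPTN was the least abundant in each, from 1.71 ± 0.107 in 20% O2 + Doxy to 5.78 ± 0.124 in 20% O2 wo Doxy. In 20% O2 + Doxy the order between them was FKBP8 (56.7 ± 13.6), BNIP3 (20.3 ± 0.480), FUNDC1 (15.4 ± 1.66), BCL2L13 (11.1 ± 0.0735), BNIP3L (8.44 ± 0.482) and PINK1 (7.28 ± 0.957), and of these neighbours BNIP3L and PINK1 overlapped. In 3% O2 + Doxy, BNIP3 (64.5 ± 4.98) moved to the level of FKBP8 (57.1 ± 11.7), with which it overlapped, and BNIP3L (24.0 ± 1.80) moved above FUNDC1, BCL2L13 and PINK1. In 3% O2 wo Doxy, BNIP3 stood at 42.6 ± 3.30 and BNIP3L at 20.4 ± 2.35, both still above FUNDC1 (14.1 ± 2.03), and BCL2L13 and PINK1 overlapped. With the longest transcript as the length, FUNDC1 and BCL2L13 exchanged places in 3 conditions (in 20% O2 wo Doxy they stood at 18.1 and 21.5 CPM per kb).

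**Figure D3:**
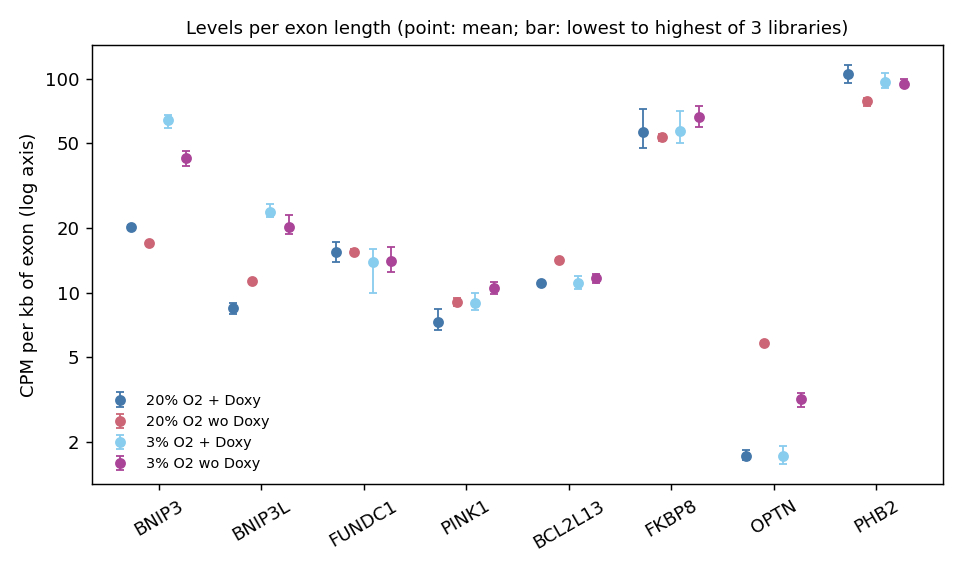
Mean CPM per kb of exon (log axis) of the 8 genes in the 4 conditions, with bars from the lowest to the highest of 3 libraries. PHB2 is highest and OPTN lowest in every condition, and BNIP3 lies at 20.3 and 17.02 at 20% O2 but at 64.5 and 42.6 at 3% O2.

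The genes whose log2 CPM followed each member most closely over the 12 libraries were listed as a description, from the genes averaging 5 CPM or more: libraries of a condition share its treatment, and the GC trend is shared too. The lists depended on the measure: ranked by Spearman's rho, 3 of these 24 genes (KDM3A, TNPO3 and ANXA11) were among the top 3 of their member, and the others ranked as low as 170 (ATXN1 for OPTN). BNIP3 was followed by P4HA1 (Pearson r = 0.988), STS (0.988) and NMNAT2 (0.987), and BNIP3L by PFKFB4 (0.978), ERRFI1 (0.976) and KDM3A (0.9745). P4HA1, a collagen prolyl hydroxylase subunit, PFKFB4, a regulator of glycolysis, and KDM3A, a histone demethylase, are known low-oxygen genes. OPTN was followed by FOSB (0.993), TNPO3 (0.990) and ATXN1 (0.990), and BCL2L13 by HIVEP2 (0.976), ZNF333 (0.972) and IRAK2 (0.967). PHB2 was followed by ANXA11 (0.988), PMPCA (0.983) and RRP1 (0.983), PINK1 by AP1G2 (0.969), CTSB (0.965) and SENCR (0.965), and FUNDC1 by SSBP1 (0.965), ELOC (0.962) and C11orf58 (0.961). FKBP8 was followed by ARFGAP1 (0.991), NISCH (0.988) and TICAM1 (0.985), which like FKBP8 have GC-rich transcripts (62.4%, 59.6% and 63.0%). Among the members themselves, the highest correlations over the 12 libraries were 0.92 between BNIP3 and BNIP3L and 0.90 between BCL2L13 and OPTN, and the lowest was -0.77, between FUNDC1 and FKBP8.

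Genes that work with OPTN in the ubiquitin route were compared as a list of 6. On FDX2 loss at 20% O2, 3 of the 6 rose, against 17.6% of all tested genes called higher, with a list median of 0.28 beside 0.01 over all tested genes. They were SQSTM1, the adaptor p62 (log2 fold change 1.27, standard error 0.128, edgeR adjusted p = 2.83e-05), NBR1 (0.65, standard error 0.0446, adjusted p = 1.86e-06) and TAX1BP1 (0.43, standard error 0.0698, adjusted p = 0.000756). CALCOCO2 (NDP52) had 0.08 (edgeR adjusted p = 0.290). At 3% O2 the edgeR adjusted p-values of the 6 were 0.0924 (NBR1, 0.14) or higher, with a median of 0.13. For 3% against 20% O2 without Doxy, 4 of the 6 were lower (median -0.28), against 11.9% of all tested genes. The differences of the responses were past the threshold for SQSTM1 (-0.92, edgeR adjusted p = 0.0125) and NBR1 (-0.51, adjusted p = 0.00118).

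Of the ATG8 family, to which receptors and adaptors bind, 6 of 7 genes were tested (MAP1LC3C held at most 2 counts). On FDX2 loss at 20% O2, GABARAPL1 (log2 fold change 1.48, standard error 0.0949, edgeR adjusted p = 1.20e-06) and MAP1LC3B (0.68, standard error 0.0667, adjusted p = 2.17e-05) rose, 2 of the 6 against 17.6% of all tested genes. GABARAPL1 also rose at 3% O2 (0.68, edgeR adjusted p = 0.00219), and both had smaller responses there (differences of -0.80 and -0.56, each with an adjusted p of 0.00582). Of 25 core autophagy genes, 5 rose and 3 fell at 20% O2 and 2 rose and 1 fell at 3% O2, with medians near 0 (-0.00482 and 0.06). Over all tested genes 35.3% were called at 20% O2, a share near that of these 25, and 7.31% at 3% O2. WIPI1, a phosphoinositide-binding factor of the forming autophagosome, rose by 1.15 at 20% and by 0.36 at 3% O2 (edgeR adjusted p = 1.70e-06 and 0.0180), with a difference of -0.78 (adjusted p = 0.00243). UVRAG rose at each oxygen level (0.40 and 0.43), and PIK3R4 fell at each (-0.23 and -0.27). ATG10, named after its values were seen, had the widest spread, at 101 ± 137 CPM in 3% O2 wo Doxy (log2 fold change 1.58, edgeR adjusted p = 0.2997).

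Among 21 genes of the PINK1 axis (kinase import and processing, ubiquitin substrates and deubiquitinases), 1 rose and 6 fell on FDX2 loss at 20% O2, and 1 fell at 3% O2. At 20% O2 this is close to the share called over all tested genes (35.3%, of which 17.6% higher and 17.7% lower), and at 3% O2 3.11% were lower. The lower genes at 20% O2 included the outer membrane channel VDAC1 (log2 fold change -0.41, edgeR adjusted p = 5.05e-05), the protease subunit AFG3L2 (-0.44, adjusted p = 8.18e-05), the phosphatase PGAM5 (-0.74, adjusted p = 0.00338) and the import receptor TOMM22 (-0.29, adjusted p = 0.00370). VDAC1 was also the gene that fell at 3% O2 (-0.18, edgeR adjusted p = 0.0344). Of 8 other receptors and partners of the prohibitins, 3 fell at 20% O2, against the same 17.7% (MCL1 by 0.37, ATAD3B by 0.75 and NIPSNAP2 by 0.25 on the log2 scale), and at 3% O2 the adjusted p-values were 0.108 (BCL2L1, 0.26) or higher. Of 8 regulators of BNIP3, BNIP3L and FUNDC1, TMEM11 (-0.44, edgeR adjusted p = 0.00125) and the ubiquitin ligase MUL1 (-0.21, adjusted p = 0.0430) fell at 20% O2. These 2 of 8 stand against 17.7% of all tested genes called lower and 35.3% called in either direction. At 3% O2 the edgeR adjusted p-values of the regulators were 0.0758 (CSNK2A1, -0.20) or higher.

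**Figure D4:**
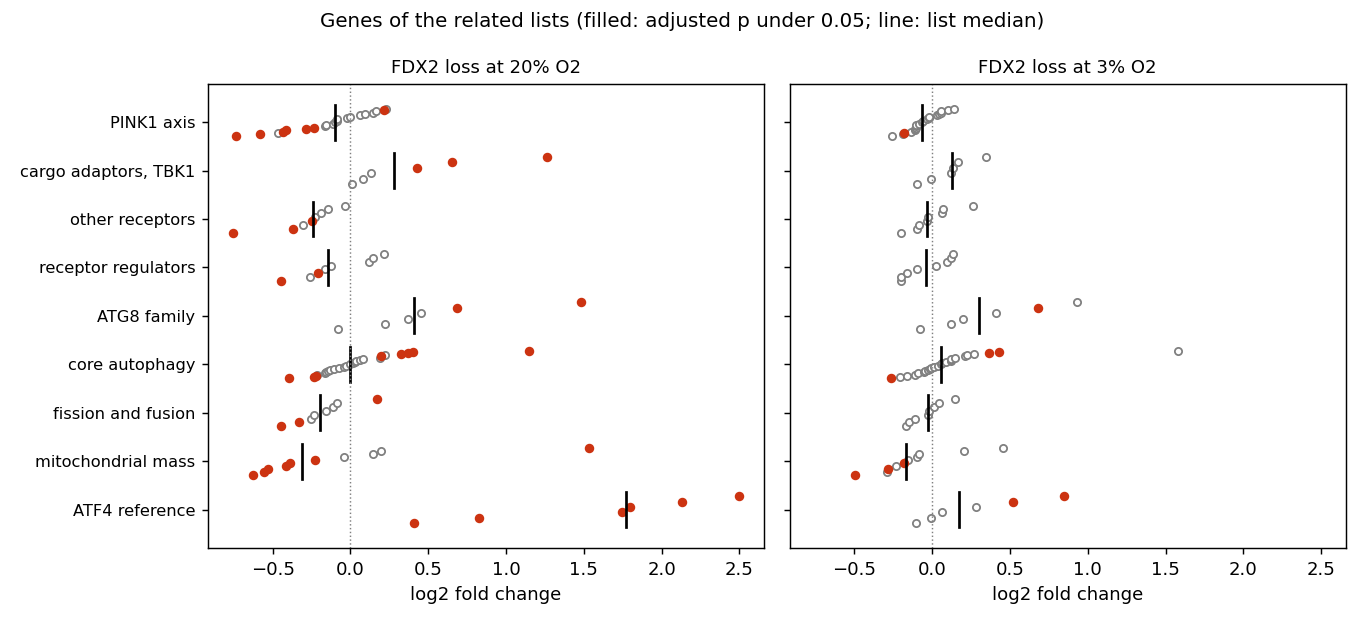
Log2 fold changes (horizontal axes) on FDX2 loss at 20% and 3% O2 of the genes in 9 related lists, with filled points for an adjusted p under 0.05 and a line at each list's median. At 20% O2 the list of cargo adaptors and the kinase TBK1 has a median of 0.28 and the ATF4 genes one of 1.77. At 3% O2 the list of cargo adaptors and TBK1 has no filled point.

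Genes that set or report the amount of mitochondria formed a list of 10. Of these, 6 fell and 1 rose on FDX2 loss at 20% O2 (median -0.31), against 17.7% lower and 17.6% higher over all tested genes, and 3 fell at 3% O2 (median -0.17), against 3.11%. Some lists share genes, so their counts are not independent: VDAC1 is counted as lower here and in the PINK1 axis at each oxygen level. The chaperonin gene HSPD1 fell by 0.63 at 20% O2 and by 0.28 at 3% O2 (edgeR adjusted p = 9.34e-06 and 0.0115), and PPARGC1B fell by 0.56 and 0.50 (adjusted p = 0.000189 and 0.00314). PPARGC1A, the coactivator of mitochondrial biogenesis, was the gene that rose at 20% O2 (log2 fold change 1.53, edgeR adjusted p = 8.14e-06), and its response was smaller at 3% O2 (difference -1.08, adjusted p = 0.00620). Of 8 genes of fission and fusion, 2 fell and 1 rose at 20% O2, a share near the 35.3% of all tested genes called. DNM1L (-0.44, edgeR adjusted p = 0.00133) and OPA1 (-0.33, adjusted p = 0.00525) fell and MFF (0.17, adjusted p = 0.0384) rose. At 3% O2 the edgeR adjusted p-values were 0.196 (OPA1, -0.17) or higher.

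Reference genes of low oxygen and of the stress factor ATF4 give the scale of these values. With Doxy, 7 of 7 tested low-oxygen genes were higher at 3% O2 (median 1.10), against 1.63% of all tested genes. Their log2 fold changes ran from 0.96 to 9.46, with PDK1 at 1.14, LDHA at 1.10 and PGK1 at 1.08, beside 1.67 for BNIP3 and 1.51 for BNIP3L. The highest was CA9, which was close to 0 at 20% O2 (0.0878 ± 0.0259 CPM) and at 63.6 ± 23.4 CPM at 3% O2 (SD, n = 3). EGLN3 held at most 1 count and was not tested. On FDX2 loss at 3% O2, 3 of the 7 were lower, against 3.11% of all tested genes. The other 4 were not called, and the values of the 7 ran up to 0.36 with a median of -0.01. LDHA (-0.52, edgeR adjusted p = 0.00133), PGK1 (-0.41, adjusted p = 0.00487) and PDK1 (-0.40, adjusted p = 0.00605) were the 3 that fell. On FDX2 loss at 20% O2, 6 of 6 ATF4 genes were higher (median 1.77), against 17.6% of all tested genes, among them DDIT3 (2.49) and CHAC1 (1.79), beside 1.75 for OPTN. At 3% O2, 2 of these 6 were higher (DDIT3 by 0.85 and ATF4 by 0.52), against 4.2%, and the response of DDIT3 was smaller there by a difference of -1.64 (edgeR adjusted p = 3.74e-06).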

How the data were processed

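Poly(A) RNA of FDX2-iKO ES2 cells was sequenced in paired-end mode. The authors aligned reads to GRCh38 with STAR, ran featureCounts for the counts per gene, and deposited raw counts, neither normalized nor pooled. Tool versions, annotation, strandedness and the handling of multi-mapping reads are not given in the sources used here. Per the series' design text, 1 file of raw reads was lost for each of 2 libraries, whose counts are included. All 58735 identifiers matched GENCODE release 29, used for positions, exon overlaps and GC content. Totals were 24958386 to 34313637 counts, and the common biological coefficient of variation was 16.3%.

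The analysis used edgeR 4.0.16 in R 4.3.3, with limma 3.58.1 and DESeq2 1.42.0 in alternatives. Genes were kept by filterByExpr (minimum count 10, minimum total 15), leaving 16891. After TMM scaling, 1 quasi-likelihood fit of the 12 libraries gave 4 condition means (8 residual df). A gene was called at a Benjamini-Hochberg adjusted p under 0.05. The difference of responses is the interaction, 3% minus 20% O2. The members and gene lists were chosen with earlier results of these data known, and 3 genes of these lists are not reported here and were left out of the counts. Genes named beside the members were, per list and comparison, at most the 4 with the lowest adjusted p, and, per member, the 3 with the highest Pearson r. On data simulated for FDX2 loss at 20% O2 (16701 genes), the fit recovered 65 of 100 genes changed 2-fold and 44 of 100 changed 1.5-fold, with 7 false calls. Simulated in the interaction, the same folds were recovered in 50 and 17 of 100 genes, again with 7 false calls. The simulated counts were drawn gene by gene without a GC trend or other deviations shared by a library. These rates therefore hold for data without such trends. Same-numbered libraries of 20% and 3% O2 wo Doxy deviated together in 3 of 3 pairs (correlations 0.190 to 0.497, against -0.473 to 0.231 for the 6 other pairs), and in no other comparison did all pairs exceed 0.1. The alternatives were other size factors, filters, thresholds and tools, compared conditions alone, a replicate block and each library left out. A GC correction, alone or with the block, was added after seeing the data.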

Additional observations from a re-analysis of the deposited data

Results flagged for a closer look

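In 2 of the 8 genes the response to FDX2 loss differed between oxygen levels by a test of the difference itself (the interaction in edgeR's quasi-likelihood fit). For OPTN the difference of the log2 fold changes, 3% minus 20% O2, was -0.86 (adjusted p = 0.00269), and it stayed between -0.93 and -0.77 and past the threshold in 18 of 18 alternatives. For BNIP3L it was -0.66 (edgeR adjusted p = 0.00845), between -0.76 and -0.59 and also past the threshold in 18 of 18. Both differences were negative, but the responses behind them were not alike: OPTN was higher without Doxy at each oxygen level, whereas BNIP3L was higher at 20% O2 and had a log2 fold change of -0.23 at 3% O2 that missed the threshold. Groups of 3 libraries were not searched for single outlying values.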

How the results depend on the processing

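Of 680 values of single members under an alternative, 596 kept their direction and their side of the threshold, 24 gained a call, 26 lost one and 34 changed sign. With at least a 1.5-fold change, 1 member was called for FDX2 loss at 20% O2 and 3 for 3% against 20% O2 without Doxy. Of the 16891 tested genes, 2301 and 1338 were called there. With the GC correction, 4 members were called for 3% against 20% O2 with Doxy, beside 1265 of all tested genes. For the difference of responses it called 5 members, beside 3095 of all tested genes. DESeq2's Wald test also called 5 members for the difference (1916 genes in all). A minimum of 10 counts in every library called 5 members too, but it changes the set of tested genes. Its number over all tested genes is not given here, so these 5 cannot be set against a background. With the replicate block and the compared conditions alone, 0 members were called for FDX2 loss at 3% O2 (BNIP3 at -0.62, adjusted p = 0.129, and OPTN at 0.87, adjusted p = 0.155), in a fit that called 1 gene in all, with 3 pairs. The cause of these shifts was not tested. In the other comparisons, not all same-numbered libraries deviated together. With the replicate block over all 12 libraries, PINK1 on FDX2 loss at 20% O2 had an adjusted p of 0.0639.

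Sign changes were confined to single comparisons in which the member missed the threshold in the fit reported. They occurred for FUNDC1, FKBP8, OPTN, BCL2L13, PHB2 and PINK1, of which OPTN, BCL2L13, PHB2 and PINK1 were called in other comparisons. FUNDC1 on FDX2 loss at 20% O2 was -0.00917 with DESeq2 size factors, -0.0373 with no filter, -0.00373 with the block over all 12 libraries, -0.00110 with the GC correction and -0.00900 with DESeq2's Wald test. At 3% O2 it was -0.00601 with no filter and -0.00144 with the compared conditions alone. FKBP8 became 0.28 on FDX2 loss at 20% O2, -0.13 for 3% against 20% O2 without Doxy (-0.14 with the block) and -0.18 for the difference with the GC correction, and -0.00419 for 3% against 20% O2 with Doxy with no filter. OPTN for 3% against 20% O2 with Doxy was 0.0113 with the GC correction. Leaving out each library in turn gave -0.0809 to 0.0827 for FUNDC1 and -0.20 to 0.12 for FKBP8 on FDX2 loss at 20% O2, and -0.16 to 0.13 for FUNDC1 and -0.0765 to 0.0539 for PHB2 at 3% O2. For 3% against 20% O2 with Doxy it gave -0.27 to 0.0282 for FUNDC1, -0.0650 to 0.0384 for BCL2L13, -0.17 to 0.21 for FKBP8 and -0.0976 to 0.0491 for OPTN, and for the difference of responses -0.16 to 0.13 for FUNDC1 and -0.19 to 0.0139 for PINK1.

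Over all tested genes, the number called ranged from 2301 to 7840 for FDX2 loss at 20% O2 (5961 as reported), from 1 to 3252 at 3% O2 (1235), from 12 to 1265 for 3% against 20% O2 with Doxy (341), from 1338 to 5589 without Doxy (4360) and from 382 to 3095 for the difference (1231). At 211 to 477 counts per library, OPTN in 3 conditions had the fewest counts behind a call among the 8 members.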
